A study of Macaca mulatta with 161 samples.

Results

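FOS, FOSB, JUN, JUNB, EGR1, ATF3, IER2, IER3 and DUSP1 are immediate early genes, and their RNA was followed in single cells of the rhesus monkey (Macaca mulatta) inner cell mass across 4 blastocyst stages. The 9 genes were chosen by name, not by a measured value, and all 9 have a row among the 16049 genes of the deposited table. Each of the 161 libraries is the amplified cDNA of 1 cell.

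The early group holds 44 cells of blastocysts with a small cavity at about embryonic day 5, and the middle group 39 cells at about day 5.5. A group of 52 cells labelled "later blastocyst", called late here, came from fully expanded blastocysts at about day 6. The hatching group holds 26 cells of about day 7, when the protocol describes the blastocysts as already out of the zona pellucida. All embryos grew in culture from oocytes of hormone-stimulated females, and the labels name no mutation or drug. In every group the outer cells were marked with the dye PKH26, the embryos were cut and kept in trypsin-EDTA at 37 °C for at least 5 min, and the cells that came apart without fluorescence were taken as inner cells. From which embryo or animal a cell was taken is not in the labels. Each stage is therefore 1 sample, the SDs below are between cells, no test between stages was made, and a difference between stages cannot be told apart from one between embryos or collections.

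Immediate early genes are transcribed within minutes of a growth factor, stretch or stress signal and need no new protein for it. Kinases of the MAPK cascade reach serum response factor and its ELK partners, and CREB family factors, on their promoters. FOS family proteins pair with JUN family proteins to form the transcription factor AP-1, whereas DUSP1 is a phosphatase that switches MAPKs off again. Enzymatic dissociation of tissue is itself known to induce many of these genes, so their RNA in a separated cell can come from the embryo or from the handling. In the embryo, ERK signalling downstream of FGF takes part in the choice between epiblast and primitive endoderm, known mainly from the mouse.

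The values are FPKM, fragments scaled to the length set for the gene and to the counted fragments of the cell. The recovered lengths ran from 1005 bases (JUN) to 4023 bases (FOSB). Whether they cover the whole transcripts was not tested, so levels compare between genes only as far as they do. Recovered reads ran from 3.15 to 20.1 M (mega) per cell, with a median of 11.9 M, and an FPKM of 1 equalled between 12 reads (JUN) and 47.9 reads (FOSB) in a cell of median depth. A gene is called detected here at an FPKM of at least 1. Means are of log2(FPKM + 1). Markers of 3 lineages were present in all stages. The 10 trophectoderm (TE) markers, which mark the outer layer, summed to 394 to 7782 FPKM in early cells, 544 to 11358 in middle, 1493 to 30130 in late and 939 to 8508 in hatching cells, and none of them was at 0 in all cells of a stage. Of 8 cumulus cell genes, 6 were at 0 in every early cell, 7 in every middle, 5 in every late and 7 in every hatching cell. The one above 0 at all stages was HAS2, a hyaluronan synthase, detected in 4.55% of early, 17.3% of late and 53.8% of hatching cells and in none of the middle cells. The early cells fell into clusters that followed the number in their titles. All 19 cells numbered 29 to 48 formed 1 cluster, and 24 of the 25 cells numbered 1 to 28 formed another. The labels do not say what the numbers stand for, so the main differences are also given within the ranges of numbers, though not for every gene and step. The remaining early cell stood alone.

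FOS, the founding subunit of AP-1, was the AP-1 gene with the largest difference between stages. Its FPKM ran from 0 through a median of 26.4 to a highest value of 705 in early cells. The lowest, median and highest values were 0, 0.167 and 102 in middle cells, 0, 0.14 and 132 in late cells, and 0, 0.112 and 83.7 in hatching cells. The groups overlapped over almost their whole ranges, and what differed was the number of cells with FOS. It was detected in 35 of 44 early cells (79.5%, exact 95% interval 64.7% to 90.2%). The counts were 14 of 39 middle cells (35.9%, 21.2% to 52.8%), 18 of 52 late cells (34.6%, 22% to 49.1%) and 7 of 26 hatching cells (26.9%, 11.6% to 47.8%). These intervals cover the counting error of cells only. Mean log2(FPKM + 1) was 4.36 ± 2.49 (SD) in early, 1.56 ± 2.07 in middle, 1.65 ± 2.32 in late and 1.37 ± 2.17 in hatching cells. The early mean stood above the other stages by more than any of these SDs, and the other stages differed from each other by far less than theirs.

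FOS was either near 0 or high. Of the 74 cells of all stages in which it was detected, 63 had an FPKM of at least 10. Another 59 cells had a value between 0 and 1, and 28 had none. The median early cell carried 669 FOS reads, against 5 in middle, 3 in late and 2 in hatching cells. The early cell that stood alone held the highest FOS of the series, 705 FPKM, together with 128 FPKM of JUN, 142 of ATF3, 51.2 of EGR1 and 187 of DUSP1, while JUNB was at 0 and IER2 at 0.492. No other cell of the series had as low an IER2. The lone cell was also the shallowest early cell, with 6.35 M reads, and had 5873 detected genes against an early median of 7019.5. Its mean level of the epiblast markers was 2.65, against 4.36 and 4.64 in the other early clusters. Without this cell the mean FOS of early cells was 4.24, with detection in 34 of 43 cells.

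**Figure D1:**
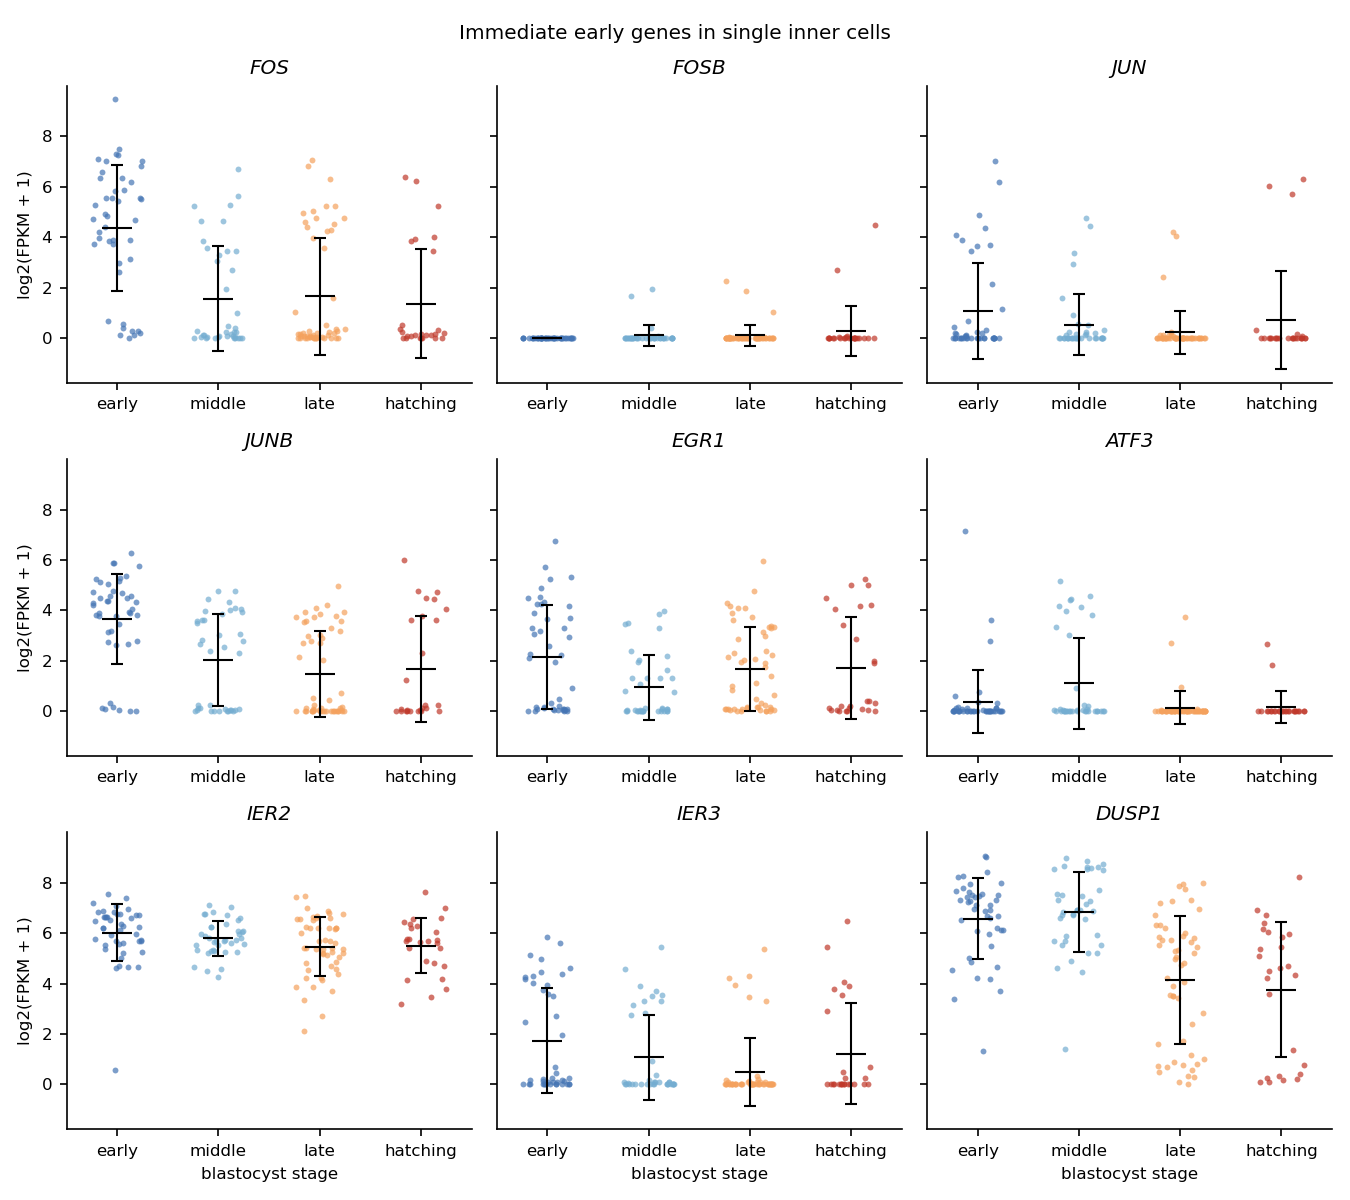
Level of each of the 9 genes in every cell (y axis, log2(FPKM + 1)) by blastocyst stage (x axis), with 1 point per cell and bars at the mean ± SD over cells. FOS and JUNB stand highest in early cells, IER2 is present in nearly every cell, and DUSP1 splits into a high and a low band in late and hatching cells only.

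FOSB, a close relative of FOS, was nearly absent. It was at 0 in all 44 early cells, which allows a share of up to 6.82% of cells with it. It was detected in 2 middle, 3 late and 2 hatching cells, with highest values of 2.83, 3.85 and 21.4 FPKM. With a mean of 0.248 FPKM over all cells it did not pass the filter of a mean of at least 1 used for differences, and the other 8 genes did. The early stage, where FOS was most often detected, was thus the stage without any FOSB read.

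JUN, a main partner of FOS in AP-1, was detected in few cells at every stage. Its length of 1005 bases was the shortest of the 9 genes, and reads outside that length would not be counted. It was detected in 11 of 44 early, 5 of 39 middle, 3 of 52 late and 3 of 26 hatching cells, and its median was 0 at all stages. The highest values were 128, 26.3, 17.7 and 78.2 FPKM. The lone early cell alone held 40.4% of the summed JUN of the early cells. Mean log2(FPKM + 1) was 1.07 ± 1.92 in early, 0.53 ± 1.21 in middle, 0.22 ± 0.86 in late and 0.72 ± 1.95 in hatching cells, steps smaller than the spread between cells.

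JUNB, which can stand in for JUN in AP-1 and often acts as its antagonist, was detected in more cells than JUN at every stage. The lowest, median and highest FPKM were 0, 16.8 and 76.0 in early, 0, 4.82 and 26.2 in middle, 0, 0.154 and 30.5 in late and 0, 0.139 and 62.2 in hatching cells. JUNB was detected in 84.1% (69.9% to 93.4%) of early, 56.4% (39.6% to 72.2%) of middle, 42.3% (28.7% to 56.8%) of late and 42.3% (23.4% to 63.1%) of hatching cells. Its mean was 3.67 ± 1.79 in early, 2.03 ± 1.84 in middle, 1.49 ± 1.71 in late and 1.69 ± 2.1 in hatching cells. The early and middle means differed by less than the SD of middle cells, and late and hatching means were within 0.20 of each other.

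FOS or FOSB was found together with JUN or JUNB more often in early than in later cells. Such a pair was detected in the same cell in 32 of 44 early cells (31 of 43 without the lone cell), 9 of 39 middle, 10 of 52 late and 5 of 26 hatching cells. FOS or FOSB without JUN or JUNB occurred in 3, 5, 9 and 4 cells of these stages, and JUN or JUNB alone in 7, 14, 12 and 8. None of these 4 genes was detected in 2 early, 11 middle, 21 late and 9 hatching cells. Other AP-1 subunits are not in these counts. FOSL2, a FOS relative, was detected in 61.4% of early, 53.8% of middle, 36.5% of late and 19.2% of hatching cells, and JUND was not analysed here. FOS and JUNB were not tied to each other within a stage. In early cells JUNB was detected in 30 of 35 cells with FOS and in 7 of 9 without it, and in middle cells in 8 of 14 and in 14 of 25.

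**Figure D2:**
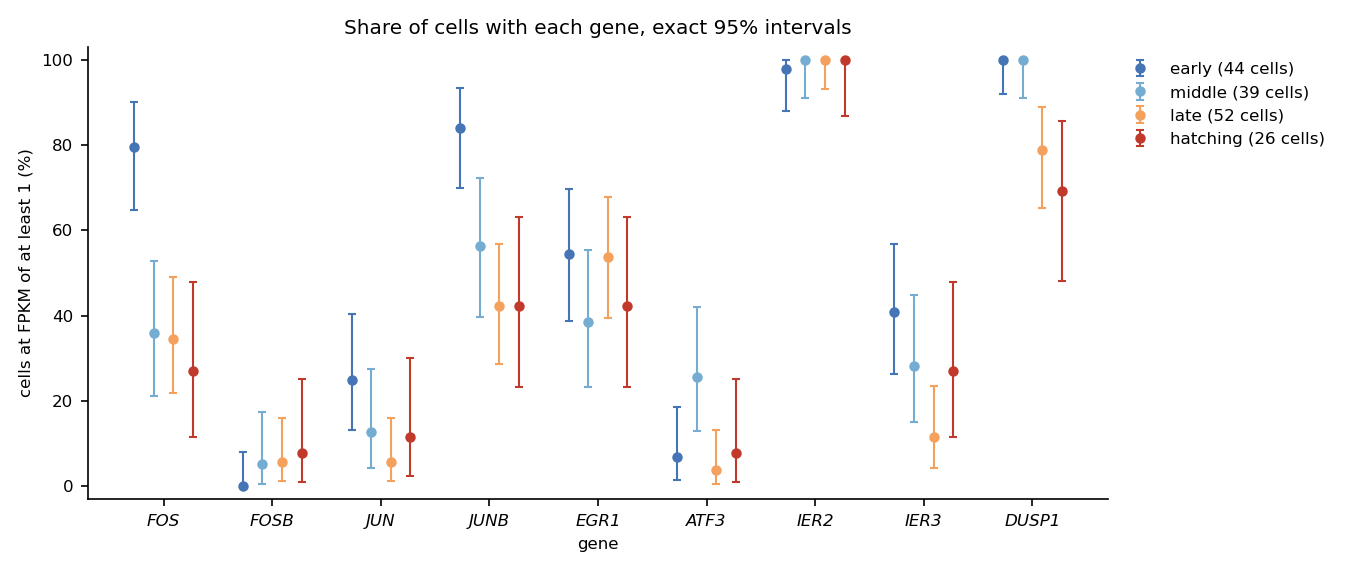
Share of cells with an FPKM of at least 1 (y axis, percent) for each gene (x axis) and stage (colour), with exact 95% intervals for the counting of cells. The early intervals of FOS (64.7% to 90.2%) lie above those of the later stages, whereas the intervals of EGR1 overlap at all stages.

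EGR1, a zinc-finger transcription factor induced through ELK and serum response factor, followed another course. The lowest, median and highest FPKM were 0, 3.51 and 107 in early, 0, 0.0761 and 14.7 in middle, 0, 1.43 and 61 in late and 0, 0.296 and 36.5 in hatching cells. It was detected in 24, 15, 28 and 11 cells, that is 54.5%, 38.5%, 53.8% and 42.3% of these stages. The mean was 2.16 ± 2.07 in early, 0.94 ± 1.27 in middle, 1.68 ± 1.66 in late and 1.71 ± 2.02 in hatching cells, so the middle stage was lowest and all steps were smaller than the spread between cells.

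ATF3, a stress-induced member of the ATF/CREB family, was found mostly in middle cells. It was detected in 10 of 39 middle cells (25.6%, 13% to 42.1%), against 3 early, 2 late and 2 hatching cells, and 8 of those 10 cells had at least 10 FPKM. The highest value was 35.0 FPKM in middle, 12.2 in late and 5.33 in hatching cells. The lone early cell held 142 FPKM, which is 87.9% of the summed ATF3 of early cells. Mean levels were 0.37 ± 1.25, 1.10 ± 1.82, 0.14 ± 0.64 and 0.17 ± 0.62 from early to hatching, steps smaller than the SD of the middle cells.

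IER2, a small nuclear protein, was the steadiest of the 9 genes. It was detected in all cells of all stages except the lone early cell. The lowest, median and highest FPKM were 0.492, 74.1 and 186 in early, 18.0, 51.7 and 137 in middle, 3.37, 41.7 and 176 in late and 8.14, 51.2 and 195 in hatching cells. Over all cells of a stage, mean levels of 6.01 ± 1.13, 5.81 ± 0.69, 5.47 ± 1.17 and 5.5 ± 1.09 differed between stages by less than 1 SD. Within the higher title numbers alone, middle minus early was -1.15.

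IER3, a short-lived regulator of cell survival, was detected in 18 early, 11 middle, 6 late and 7 hatching cells (40.9%, 28.2%, 11.5% and 26.9%). Its median was 0.176 FPKM in early and 0.0571 in middle cells and 0 in late and hatching cells, with highest values of 57.1, 43.1, 40.2 and 89.6 FPKM. Means were 1.74 ± 2.09 in early, 1.08 ± 1.69 in middle, 0.50 ± 1.34 in late and 1.22 ± 2.01 in hatching cells.

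DUSP1, the feedback inhibitor among the 9, had the highest mean FPKM over all cells, 106 against 63.7 for IER2, the next. On the log2(FPKM + 1) scale its mean was above that of IER2 in early and middle cells and below it in late and hatching cells. The lowest, median and highest FPKM were 1.48, 131 and 534 in early cells and 1.63, 119 and 512 in middle cells, so every cell of both stages held it. In late cells they were 0, 28.5 and 256, and in hatching cells 0.0548, 22.7 and 303. A group of 11 late and 8 hatching cells lay under 1 FPKM, which no early or middle cell did. DUSP1 was detected in 78.8% (65.3% to 88.9%) of late and 69.2% (48.2% to 85.7%) of hatching cells. Mean levels were 6.58 ± 1.60 in early, 6.84 ± 1.57 in middle, 4.15 ± 2.53 in late and 3.77 ± 2.67 in hatching cells. The step between middle and late exceeded the SDs of both, and early and middle, or late and hatching, differed by less than theirs.

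**Figure D3:**
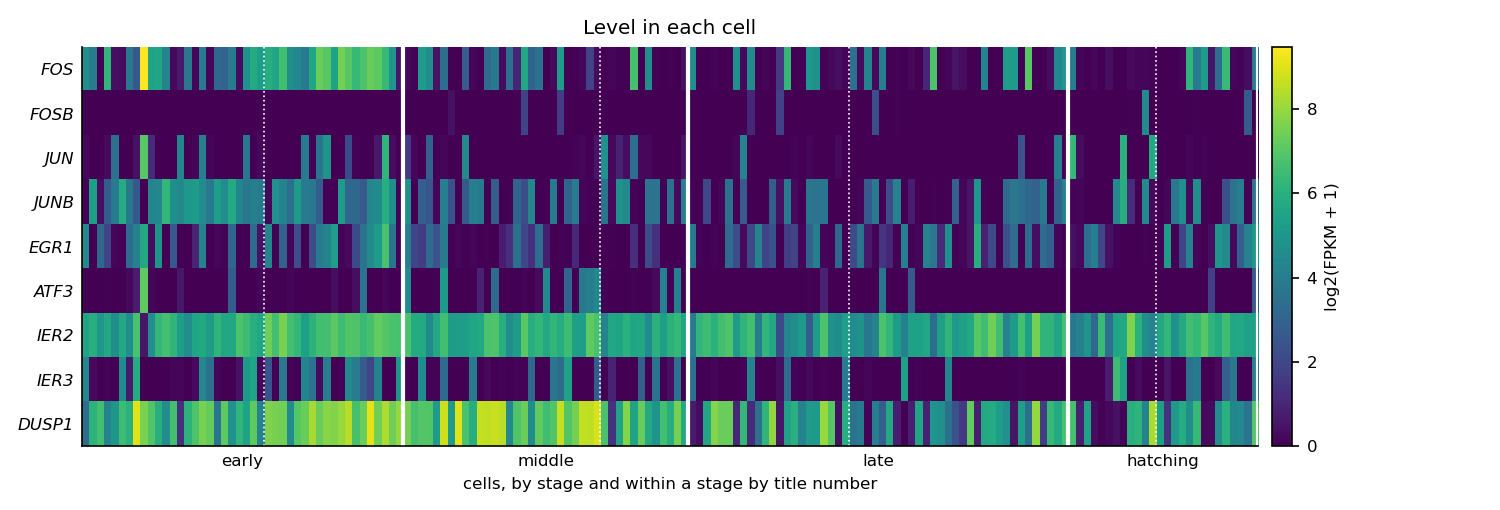
Level of each gene (rows, colour as log2(FPKM + 1)) in each of the 161 cells (columns), ordered by stage and within a stage by title number; solid lines part the stages and dotted lines mark the first cell of the higher numbers. Early cells of higher numbers carry FOS almost without a gap (18 of 19), those of lower numbers hold it in 17 of 25, and the highest value, 705 FPKM, belongs to the lone early cell.

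Set side by side over the whole time span, FOS, JUNB and DUSP1 were lower in hatching than in early cells by more than 1 log2 unit, and none of the genes was higher by as much. The differences of hatching minus early were -2.99 for FOS, -2.81 for DUSP1 and -1.98 for JUNB, and those of the other 5 genes that passed the filter lay between -0.51 and -0.20. FOSB differed by 0.28. Of all 9781 genes that passed, 16.2% were lower and 11.3% higher by as much. The median over the 8 genes was -0.51, and over all 9 also -0.51, beside -0.12 over all genes. Without the lone early cell FOS differed by -2.87, DUSP1 by -2.79 and JUNB by -2.06. Within the lower title numbers FOS differed by -2.83 and within the higher by -3.64. DUSP1 gave -2.64 and -3.29 in these ranges and JUNB -2.59 and -1.32. JUN passed 1 log2 unit within the higher numbers, at -1.13. Of the 9 TE markers that passed, KRT19 (6.78) and KRT7 (4.39) were higher in hatching cells and CDX2 (-2.13) was lower. Their part in these differences was not tested.

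The 3 steps between neighbouring stages differed in which genes moved. Middle minus early gave -2.79 for FOS, -1.64 for JUNB and -1.22 for EGR1, where 3.61% of all genes were lower and 3.06% higher by at least 1 log2 unit. The FOS difference stood at the 0.0818th percentile of the genes tested. Late minus middle gave -2.69 for DUSP1 alone, where 5.82% of all genes were lower and 3.95% higher. FOS (0.09), JUNB (-0.54), EGR1 (0.74) and ATF3 (-0.96) did not reach 1 log2 unit at that step. Over 12 alternative settings ATF3 ran from -2.04 to 0 and EGR1 from 0.25 to 1.40, and 8 of the 12 left each short of 1 log2 unit. Hatching minus late left all 8 genes within 1 log2 unit in the pooled cells, with IER3 at 0.73 and JUN at 0.50, where 9.87% of all genes were lower and 7.26% higher. Within the lower title numbers this step gave -2.09 for DUSP1, -1.11 for FOS and 1.28 for JUN. Within the higher title numbers IER3 gave 1.01. With the log2 of mean FPKM over all cells JUN gave 2.29 and IER3 1.43. In the pooled cells the largest difference of FOS thus lay between early and middle, and that of DUSP1 between middle and late. Within the lower title numbers DUSP1 also fell past 1 log2 unit between late and hatching, so this order of its steps is that of the pooled cells only. Neighbouring steps share the cells of the stage between them.

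The step between early and middle changed with the title numbers, and for DUSP1 even its sign did. Early cells of higher numbers had more FOS, with a mean of 5.8 and detection in 18 of 19 cells, than early cells of lower numbers, with 3.26 and 17 of 25. DUSP1 averaged 7.53 in the higher and 5.86 in the lower early numbers, IER2 6.70 and 5.49, and JUNB 3.27 and 3.97. Middle cells showed the opposite, with FOS at 1.01 in 12 cells of higher numbers and 1.94 in 25 of lower numbers, and DUSP1 at 5.87 and 7.28. The pooled DUSP1 difference of middle minus early was 0.26, but it was -1.65 within the higher and 1.42 within the lower numbers. FOS remained negative in both, -4.79 in the higher and -1.32 in the lower numbers. JUNB gave -0.93 in the higher and -2.12 in the lower numbers, and EGR1 -2.31 and -0.70. Within the higher numbers IER2 (-1.15) and IER3 (-1.21) were lower by more than 1 log2 unit as well. Sequencing depth moved with the numbers, as did marker levels. In early cells the TE markers averaged 3.74 in the higher and 3.41 in the lower numbers, and the heat shock genes 6.50 and 6.24. A cluster of 26 middle cells, 24 of them of lower numbers, had a mean TE marker level of 4.28, with 6 TE markers raised. The other 13 middle cells, 12 of them of higher numbers, had a mean of 3.08. The part of depth, TE markers and heat shock genes was not tested. The median depth was 15.1 M reads in the 19 early cells of higher numbers and 9.04 M in the 25 of lower numbers. Over all 44 early cells the rank correlation of FOS with reads was 0.46. Within the higher numbers it was -0.01 and within the lower -0.09, as a description of cells that share a stage and unknown embryos. DUSP1 gave 0.48 over all early cells, and 0.03 and -0.08 within the ranges.

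Late and hatching cells could be parted into epiblast-like (EPI-like) and primitive endoderm-like (PE-like) classes by clustering. The 9 genes, the lineage markers and the other listed genes were left out of it. The epiblast is the source of the fetus, and the primitive endoderm of the yolk sac lining. In late blastocysts 29 cells were PE-like and 23 EPI-like. FOS was detected in 16 of 29 PE-like cells (55.2%, 35.7% to 73.6%) and in 2 of 23 EPI-like cells (8.70%, 1.07% to 28%). Its lowest, median and highest FPKM were 0, 1.97 and 132 in PE-like, against 0, 0.0389 and 21.9 in EPI-like cells. The mean was 2.62 ± 2.54 in PE-like and 0.44 ± 1.21 in EPI-like cells, so the classes differed by less than the SD of the PE-like cells. EGR1 went the same way, with 0, 6.19 and 61 FPKM in PE-like and 0, 0.115 and 26 in EPI-like cells, and detection in 20 of 29 and in 8 of 23.

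DUSP1 and IER2 went the other way in late cells. DUSP1 ran from 0 through 10.6 to 161 FPKM in PE-like, and from 0.231 through 51.9 to 256 FPKM in EPI-like cells. IER2 had a median of 33.9 FPKM in PE-like and 72.3 in EPI-like cells. PE-like minus EPI-like differences were 2.18 for FOS, 1.56 for EGR1, -1.74 for DUSP1 and -1.05 for IER2, where 8.58% of all genes were higher and 9.03% lower by at least 1 log2 unit. FOS gave 2.16 within the higher and 1.93 within the lower title numbers, EGR1 1.44 and 1.54, and DUSP1 -1.47 and -2.09. IER2 gave -0.72 and -1.70 there, and -0.94 without the late PE-like cell of the highest TE marker level (8.09, the next being 4.98). With that cell kept, IER2 gave -0.81 with a pseudocount of 10 and -0.79 with the log2 of mean FPKM. It passed 1 log2 unit under 7 of 13 alternative settings. The median over the 8 genes was -0.02, the same as over all genes, since the differences had both signs. TE markers summed to 1493 to 30130 FPKM in PE-like and 1624 to 8245 in EPI-like cells, with 2 of 9 higher and 3 lower in PE-like cells, and their part was not tested.

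**Figure D4:**
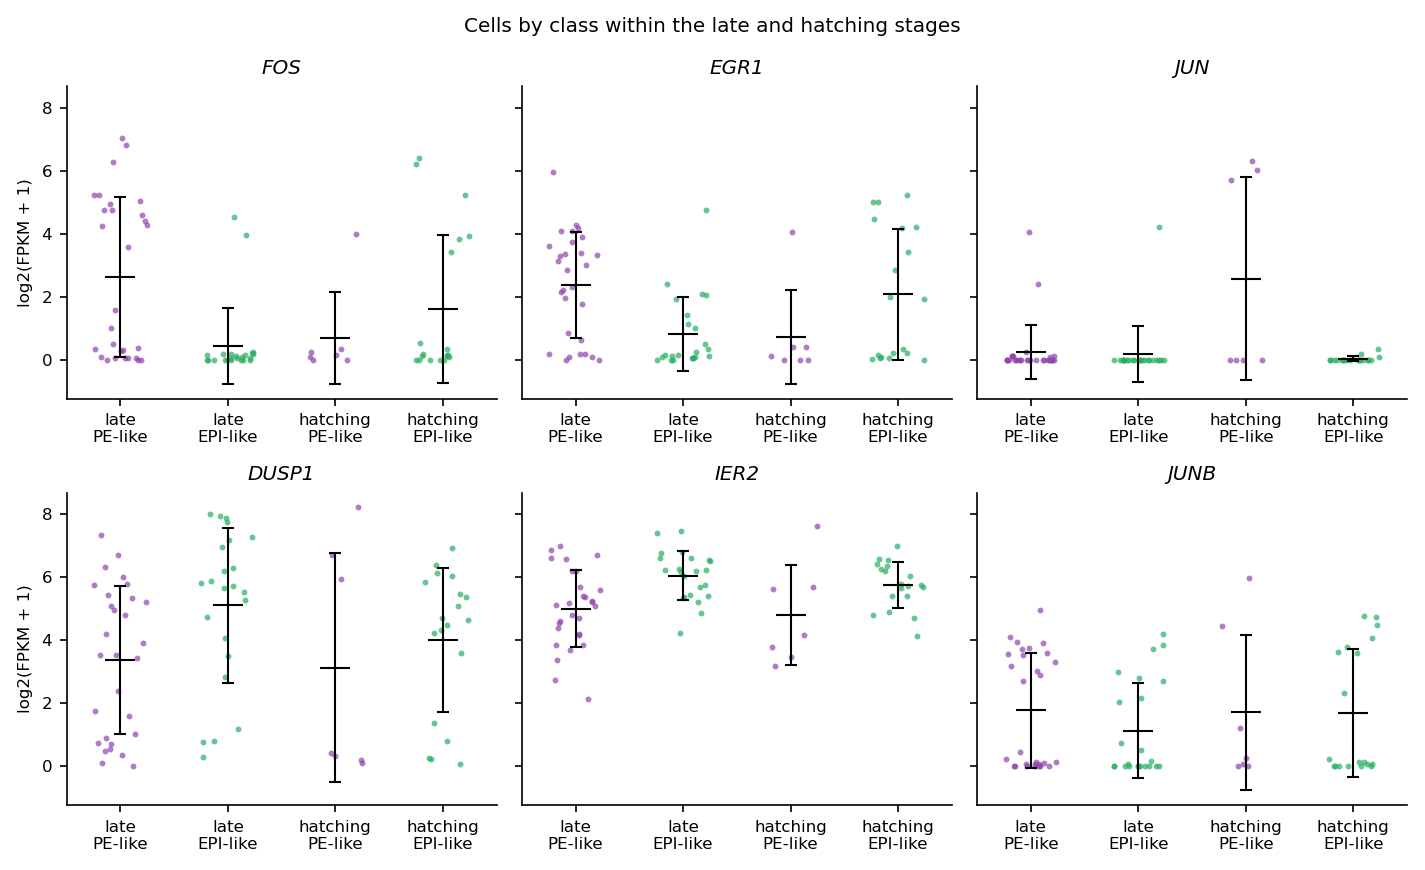
Level (y axis, log2(FPKM + 1)) of 6 of the genes in PE-like and EPI-like cells of the late and hatching stages (x axis), with 1 point per cell and bars at the mean ± SD over cells. In late cells FOS and EGR1 stand higher in the PE-like class, and the 3 hatching cells with JUN are all PE-like.

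In hatching cells the class differences depended on the title numbers. Of their 26 cells 7 were PE-like, and all 7 had title numbers 1 to 18, so that class and number range can hardly be told apart. FOS was detected in 1 of 7 PE-like (14.3%, 0.361% to 57.9%) and 6 of 19 EPI-like cells (31.6%, 12.6% to 56.6%), and EGR1 in 1 of 7 and 10 of 19. JUN was detected in 3 of 7 PE-like cells at 78.2, 64.5 and 50.8 FPKM, and in none of 19 EPI-like cells, whose highest value was 0.258. PE-like minus EPI-like differences were 2.54 for JUN and -1.36 for EGR1, where 14.2% of all genes were higher and 33.7% lower. PE-like hatching cells had a median of 5680 detected genes, against 6940 in EPI-like ones, and 7 of 11 heat shock genes were lower in them by at least 1 log2 unit. The part of either was not tested. The pooled difference of FOS was -0.93. Against the 5 EPI-like cells of the same number range it had the opposite sign, 0.60, with means of 0.68 ± 1.47 in PE-like and 0.08 ± 0.08 in EPI-like cells, and the only cell with FOS among these 12 was PE-like. In that range JUN gave 2.51 and EGR1 -0.43. Whether the class difference of FOS itself changed between late and hatching was not tested.

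Within the EPI-like class, hatching minus late cells differed by 1.18 for FOS, 1.26 for EGR1 and -1.12 for DUSP1, where 8.34% of all genes were higher and 7.51% lower. All 3 values depended on the title numbers. Within the higher numbers (14 hatching and 12 late cells) they were 1.77, 1.45 and -0.29. Within the lower numbers (5 hatching and 9 late cells) they were -0.50, 0.37 and -3.02.

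The median number of the 9 genes detected was 5 in early, 4 in middle, 3 in late and 3 in hatching cells. At least 5 were detected in 25 of 44 early, 13 of 39 middle, 8 of 52 late and 4 of 26 hatching cells, and no cell held more than 7. The mean level over the 9 genes was 2.88 ± 0.71 in early, 2.22 ± 0.56 in middle, 1.71 ± 0.50 in late and 1.83 ± 0.75 in hatching cells. Much of the RNA came from IER2 and DUSP1, which made up a median of 69.9% of the summed FPKM of the 9 genes in early, 89.1% in middle, 83.2% in late and 76.2% in hatching cells. FOS, JUNB and EGR1 were detected together in 17 early, 6 middle, 6 late and 2 hatching cells. None of these 3 genes was detected in 1 early, 9 middle, 11 late and 6 hatching cells.

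By the mean of the 4 within-stage rank correlations, FOS and EGR1 were the pair most alike from cell to cell (0.38), followed by IER2 and DUSP1 (0.34). Single stages differed, since IER2 and DUSP1 were more alike in late cells (0.44) and JUNB and IER3 in hatching cells (0.35). The rank correlation of FOS and EGR1 over cells was 0.49 in early (n = 44), 0.53 in middle (n = 39), 0.23 in late (n = 52) and 0.25 in hatching cells (n = 26). EGR1 was detected in 22 of 35 early cells with FOS and in 2 of 9 without it, in middle cells in 9 of 14 and 6 of 25, in late cells in 13 of 18 and 15 of 34, and in hatching cells in 4 of 7 and 7 of 19. IER2 and DUSP1 had correlations of 0.49, 0.42, 0.44 and 0.01 from early to hatching. FOS and IER2 changed sign, with 0.44 in early and -0.39 in late cells. The other pairs averaged between -0.17 and 0.23 over the stages where both genes varied. Cells of a stage share embryos, depth and number ranges to an unknown degree, so these correlations describe the cells at hand. Late cells also mix PE-like and EPI-like cells. PE-like minus EPI-like was 2.18 for FOS and 1.56 for EGR1, but -1.05 for IER2 and -1.74 for DUSP1. The part of class in the correlations was not tested.

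**Figure D5:**
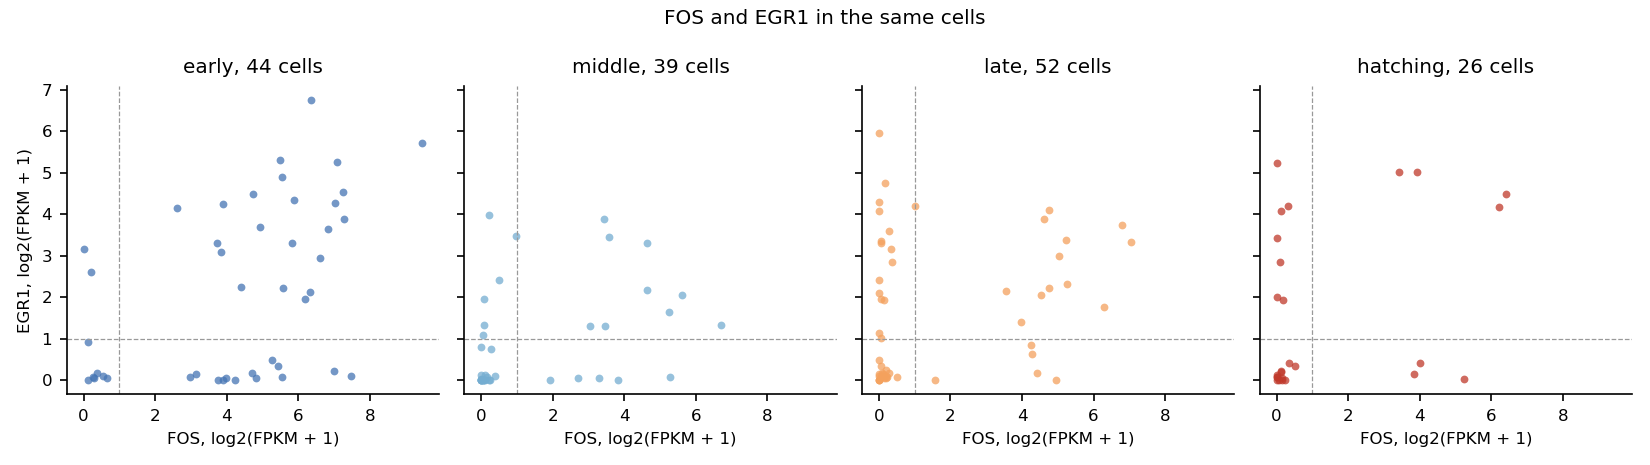
EGR1 (y axis) against FOS (x axis) in each cell, both as log2(FPKM + 1), with 1 panel per stage and dashed lines at an FPKM of 1. Cells with both genes number 22 in early, 9 in middle, 13 in late and 4 in hatching blastocysts.

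The genes most like a member over the 4 stages were looked for among 8505 genes detected in at least 25% of cells, by the mean of the 4 within-stage rank correlations. FOSB, JUN and ATF3 were detected in fewer cells and were left out, so the search covered 6 of the 9. For FOS they were EGR1 (0.38), HOXC9 (0.34) and TRIAP1 (0.33), and for EGR1 they were FOS (0.38), MERTK (0.34) and SFXN5 (0.34). JUNB was most like NOSTRIN (0.36), DHX35 and GCC1, and IER3 most like AGXT2L1 (0.33), SCARB1 and DNASE1L2. For IER2 they were FGF4 (0.40), PRIM1 and SUB1, and for DUSP1 FAM129B (0.37), XPOT and ZFAND2A. FGF4 is also one of the epiblast markers, and late PE-like minus EPI-like was -3.27 for it and -1.05 for IER2. The correlation of IER2 with FGF4 was 0.31, 0.30, 0.52 and 0.47 from early to hatching. The part of class in it was not tested. For the mean over the 9 genes they were UBQLN1, CCDC43, ELF3, POLG, PCGF1, METTL23, RTKN, PDCD6IP, GPRC5C and C4orf46, with values of 0.27 to 0.33. All are weak, and the FOS and EGR1 pair is the only one among them made of 2 of these 6 genes.

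Other genes commonly counted as immediate early were more often lower than higher in hatching against early cells. Of a list of 35, 33 had a row and 26 passed the filter, of which 10 were lower and 3 higher by at least 1 log2 unit and 13 neither, beside 16.2% lower and 11.3% higher over all genes. Their median difference was -0.33, beside -0.12 over all genes. BTG2, an antiproliferative gene, averaged 0.15 ± 0.52 in hatching and 3.87 ± 1.74 in early cells, a difference of -3.73. RHOB, a small GTPase, averaged 1.35 ± 1.84 and 4.69 ± 1.87 (-3.34), and the zinc-finger factor KLF10 averaged 2.02 ± 2.1 and 5.16 ± 0.94 (-3.14). ZFP36L1, which promotes decay of AU-rich mRNAs, went the other way, with 5.79 ± 1.34 in hatching and 2.88 ± 2.14 in early cells (2.92). Of the same 26 genes, 7 were lower and 1 higher in middle than in early cells, beside 3.61% and 3.06% of all genes. In late against middle cells 6 were lower and 3 higher, beside 5.82% and 3.95%. In hatching against late cells 5 were lower and 5 higher, beside 9.87% and 7.26%.

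In late PE-like minus EPI-like cells 4 of these 26 genes were higher and 5 lower, beside 8.58% and 9.03% of all genes. The 4 higher ones, KLF6 (2.81), RHOB (2.81), ZFP36 (2.76) and FOSL2 (1.5), were named after their values were seen, as were the 2 lowest, CYR61 (-3.99) and SGK1 (-2.49). ZFP36, which destabilises mRNAs such as that of cytokines, was detected in 79.3% of PE-like and in none of the EPI-like cells. FOSL2 can take the place of FOS in AP-1.

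Genes upstream of the immediate early genes showed no common direction. Of 21 that passed, 5 were higher and 3 lower in hatching than in early cells, beside 11.3% and 16.2% of all genes, with a median of 0.11. The kinase MAP2K1 averaged 4.75 ± 1.23 in hatching and 2.99 ± 1.74 in early cells (1.76), and MKL1, a cofactor of serum response factor, 3.66 ± 2.07 and 2.27 ± 1.47 (1.39). The ELK family partners of serum response factor were lower, ELK1 with 2.18 ± 2.28 in hatching and 3.97 ± 1.46 in early cells (-1.79) and ELK3 with 0.73 ± 1.42 and 2.36 ± 1.77 (-1.64). SRF itself differed by 0.07.

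Heat shock and unfolded protein genes respond to stress of many kinds. Of 11, all of which passed, 10 had a negative difference in hatching minus early cells, 3 of them of at least 1 log2 unit, and 1 was higher by as much. Over all genes 16.2% were lower and 11.3% higher by as much. The median over the 11 was -0.93, beside -0.51 over the 8 genes and -0.12 over all genes. HSPB1, a small heat shock protein, averaged 8.21 ± 2.12 in hatching and 3.59 ± 3.23 in early cells (4.61). The mitochondrial chaperones HSPE1 (-1.38) and HSPD1 (-1.35) and the stress factor DDIT3 (-1.03) were lower. Middle minus early was the step between neighbouring stages with the largest FOS difference, -2.79, beside -2.99 for hatching minus early. At that step none of the 11 heat shock and unfolded protein genes passed 1 log2 unit. Their median was 0.09, beside 0.08 over all genes. The mean level over the list was 6.42 ± 0.56 in middle and 6.35 ± 0.53 in early cells. Within early cells its rank correlation was 0.14 with FOS, 0.38 with JUNB, 0.30 with DUSP1 and 0.29 with IER2. Those with the other genes that varied lay between -0.03 (IER3) and 0.19 (EGR1). With the mean over the 9 genes it was 0.25 in early, 0.31 in middle, 0.11 in late and -0.01 in hatching cells. The part of dissociation in the levels of the 9 genes was not tested, since no cell was lysed without it.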

How the data were processed

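The authors deposited 1 table of FPKM for 16049 gene symbols in 161 cells, and all its columns carry a cell's title. HTSeq, DESeq2, FastQC and TopHat2 2.1.0 appear in the submitters' processing notes without a stated role, while the build is not given in the sources used here, nor is the annotation. The label for the stage set the group of a cell. The 9 genes and the gene lists were chosen with earlier results of these data known.

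Levels are means over cells of log2(FPKM + 1), with a pseudocount of 1 that understates differences of low genes. Differences are between such means, among the 9781 genes with a mean FPKM of at least 1, and 1 log2 unit counts as higher or lower. Shares count cells that reach an FPKM of 1, and their exact 95% intervals are Clopper-Pearson; for a share of 0 the limit is 3 cells of the total. Cells are not replicates and no p-value was computed. Fragments were recovered from the steps between low FPKM values for all 13857 genes above 0 in at least 2 cells (values counted as whole to within 1e-08 of their size, or 1e-05), which gave the depth of each cell. PCR reads carry no molecular identifiers. Recovery and differences were tested on simulated data.

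Late and hatching classes came from Ward clustering on 10 principal components of the 1000 most variable genes within a stage, without any gene of the lists. A class needed 5 cells and 3 raised markers, more than of any other lineage. A cluster of 26 middle cells, 24 of them of lower title numbers, met this for TE markers, but it followed the numbers and is not named. Doublets were not called, since cells were picked singly. All 9 genes are named, of each other list the up to 4 genes with the largest absolute difference of hatching minus early, and the 3 genes most like each member detected in 25% of cells, or the 10 most like their mean. Of 122 listed genes 7 had no row and are not analysed here. The tools were scikit-learn 1.9.0, scipy 1.17.1, numpy 2.4.6 and pandas 2.3.3 under Python 3.11.15.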

Additional observations from a re-analysis of the deposited data

How the results depend on the processing

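Pseudocounts of 0.1 and 10, another scaling, medians over cells, the log2 of mean FPKM, no filter on low values, cells left out by title prefix (HS), gene number or title number, and 5 in place of 10 principal components were tried. Leaving out the lone early cell or the late cell highest in TE markers, and the title numbers within classes, were added after seeing the data. The median over the genes ran from -1.16 to -0.30 for hatching minus early (reported -0.51), -1.18 to -0.26 for middle minus early (-0.60), -0.87 to -0.06 for late minus middle (-0.44), -0.22 to 0.44 for hatching minus late (0.03), -0.08 to 0.18 for late PE-like minus EPI-like (-0.02) and -0.43 to 0.38 for EPI-like hatching minus late (0.18). For hatching PE-like minus EPI-like (-0.55) it was 0.23 with the log2 of mean FPKM and 0.30 within the lower title numbers, and the cause was not tested. That comparison had no value without the fifth of cells with fewest genes or within the higher title numbers, where under 3 PE-like cells were left. FOS and DUSP1 stayed lower by at least 1 log2 unit in hatching than in early cells under all 12 alternatives, as did FOS in middle against early and DUSP1 in late against middle cells. JUNB reached -0.77 in hatching and -0.74 in middle against early cells, and EGR1 -0.51 in middle against early cells, with the pseudocount of 10. With it FOS was 0.92 and EGR1 0.52 in late PE-like minus EPI-like cells. JUN in hatching PE-like minus EPI-like cells was 0 for medians. FOS in EPI-like hatching minus late cells reversed to -0.50 within the lower title numbers. Over all pairs of a gene and a cell, 54.3%, 44.7%, 37.4% and 37.2% were detected from early to hatching. A threshold of 0.1 FPKM gave 62.9%, 52.7%, 46.2% and 48.7%, by its construction, and 5 FPKM gave 31.8% in late cells. At an equal depth of 2.5 M reads the expected share with at least 1 read was 62.4%, 53.1%, 46.5% and 48%. No paired analysis was possible because the cell numbers are not replicate numbers and no test was made. In a cell of median depth 1 FPKM of any of the 9 genes equals at least 12 reads and the number of embryos per stage is not in the labels.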
